A study of Canis lupus familiaris with 12 samples.

Results

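Described here are 5 genes of epithelial cells, the keratins KRT7 and KRT19, the membrane protein MAL, the 14-3-3 protein stratifin (SFN) and the secreted trefoil peptide TFF1. They were read in dog kidney cells made to express Snail, Slug or E47, each set against control cells. The members were taken by symbol from the array's annotation and make up 5 of 4325 genes named there by a single symbol, and 7 of 13056 probes. They were picked because earlier results of these same arrays showed them away from the control in at least 1 transfectant. Their values against the control are therefore given as a description, without a test of their own.

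Keratins are the intermediate filament proteins of epithelia. Type I and type II keratins assemble in pairs, and the filaments are anchored at desmosomes. KRT7 is a type II keratin of simple and ductal epithelia, and KRT19 a small type I keratin of simple epithelia. KRT8 and KRT18 are the pair found in nearly all simple epithelia. MAL is a small proteolipid of lipid rafts that carries proteins to the apical membrane, a role worked out in large part in MDCK cells. SFN is the 14-3-3 protein most tied to epithelial cells, is induced by p53 and holds cells before mitosis. TFF1 protects mucous surfaces, is secreted by the stomach's mucous cells and is known as an oestrogen-induced gene of breast cancer cells.

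MDCK is an epithelial line from dog kidney. The groups were MDCK cells transfected with Snail, with Slug or with E47, and the control was MDCK-CMV. Each transfectant had 2 numbered samples, and each sample was hybridised against the control once in either dye, which gave 4 arrays per transfectant and 12 in all. The labels give neither the constructs, nor whether a transfectant is 1 clone, nor whether samples 1 and 2 came from separate cultures. All 3 comparisons share the control RNA, and the control's own spread is not in the ratios. The probes are named by human genes and read dog RNA. Whether a keratin clone also bound related keratins was not tested. Every member had a gene of the same symbol in dog RefSeq.

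Snail and Slug are zinc finger proteins and E47 is a helix-loop-helix protein, all known to repress CDH1, the E-cadherin gene. The direction of every ratio is assumed. Titles give the dye of the transfectant, but the labels do not say which channel is on top, and the deposited signs did not follow the dyes. Correlations were taken over the 8289 probes with a value on all 12 arrays. Between arrays with the transfectant in Cy5 they reached -0.65, and between those with it in Cy3 -0.56. Both Snail 2 arrays, both Slug 1 arrays and the E47 2 array titled Cy5 were turned, 5 of 12, so that CDH1 lay below the control. The same 12 signs came out when arrays were aligned without the probes of CDH1 and of the 5 genes, with CDH1 used only for each transfectant's overall sign. With a transfectant turned as a whole, "below" and "above" exchange, and a rank counted from the lowest becomes the same rank from the highest. The side of a gene relative to CDH1 on an array does not change with that array's sign.

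Arrays carried values for 10654 to 12982 probes. Duplicate spots of a clone correlated with r of 0.29 (E47 1, titled Cy3) to 0.85 within an array. CDH1 lay between -2.78 and -1.28 on the 12 arrays by the choice of sign. SNAI1, the gene of Snail, lay between 0.87 and 2.94 on the Snail arrays, between 0.42 and 0.91 on the Slug arrays and between -0.089 and 0.40 on the E47 arrays. TCF3, the gene of E47, lay between 0.60 and 0.87 on the E47 arrays but between 1.01 and 1.20, higher still, on the Slug arrays, and between -0.42 and 0.19 on the Snail arrays. TCF3 thus does not set the E47 arrays apart from the Slug arrays. Slug's own gene, SNAI2, is not analysed here. Ratios hold no level, so the epithelial identity of MDCK-CMV could not be read from markers, and in such bulk RNA a smaller share of cells and less RNA per cell cannot be told apart.

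KRT19 had the lowest mean of the 5 genes in each transfectant, close to that of TFF1 in E47. Its log2 ratios were -2.45 and -3.10 on the Snail 1 arrays titled Cy5 and Cy3 and -3.05 on the Snail 2 array titled Cy5. On the Slug arrays they were -1.83 and -1.44 in sample 1 and -3.01 and -2.48 in sample 2. The E47 arrays gave -1.82 in sample 1 (titled Cy5) and -1.77 and -2.19 in sample 2. All 10 values lay below 0, and the other two arrays, Snail 2 and E47 1 titled Cy3, had no value for the single KRT19 spot. KRT19 shared the side of CDH1 on 10 of 10 arrays. Among the 4107 genes with at least 10 values, 2.8% did so on every array that read them. The mean log2 ratio was -2.91 ± 0.20 (SD, n = 2 samples) in Snail, 7.53-fold below the control. It was -2.19 ± 0.78 in Slug, 4.57-fold, and -1.90 ± 0.12 in E47, 3.73-fold. KRT19 held rank 5 from the lowest of 4082 genes in Snail, rank 8 of 4318 in Slug and rank 10 of 4229 in E47. The order of the means was Snail, Slug, E47 from the lowest. The Slug arrays spanned a wider range than the others and overlapped those of both neighbours, while the Snail and E47 arrays did not overlap.

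KRT7 lay below the control in Snail and E47 and close to it in Slug. The Snail arrays read -1.17 and -0.87 in sample 1 and -0.90 and -1.05 in sample 2, and the E47 arrays read -1.34 and -1.52 in sample 1 and -1.49 and -1.02 in sample 2. The Slug arrays read -0.46 and -0.37 in sample 1 but -0.47 and 0.58 in sample 2, titled Cy5 and Cy3. So 3 of 4 Slug arrays lay close together, and that of sample 2 titled Cy3 stood on the other side of 0. Means were -0.999 ± 0.03 in Snail (SD, n = 2), 2.00-fold below the control, -0.18 ± 0.33 in Slug and -1.34 ± 0.12 in E47, 2.53-fold below. KRT7 lay below 0 on all 4 E47 arrays, as 14.5% of genes did, and KRT19 on all 4 Slug arrays, as 19.2% did. The lowest KRT7 means were E47 and Snail, whose arrays overlapped, and every Slug array lay above all arrays of both. Rank from the lowest was 66 in Snail, 1287 in Slug and 19 in E47.

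**Figure D1:**
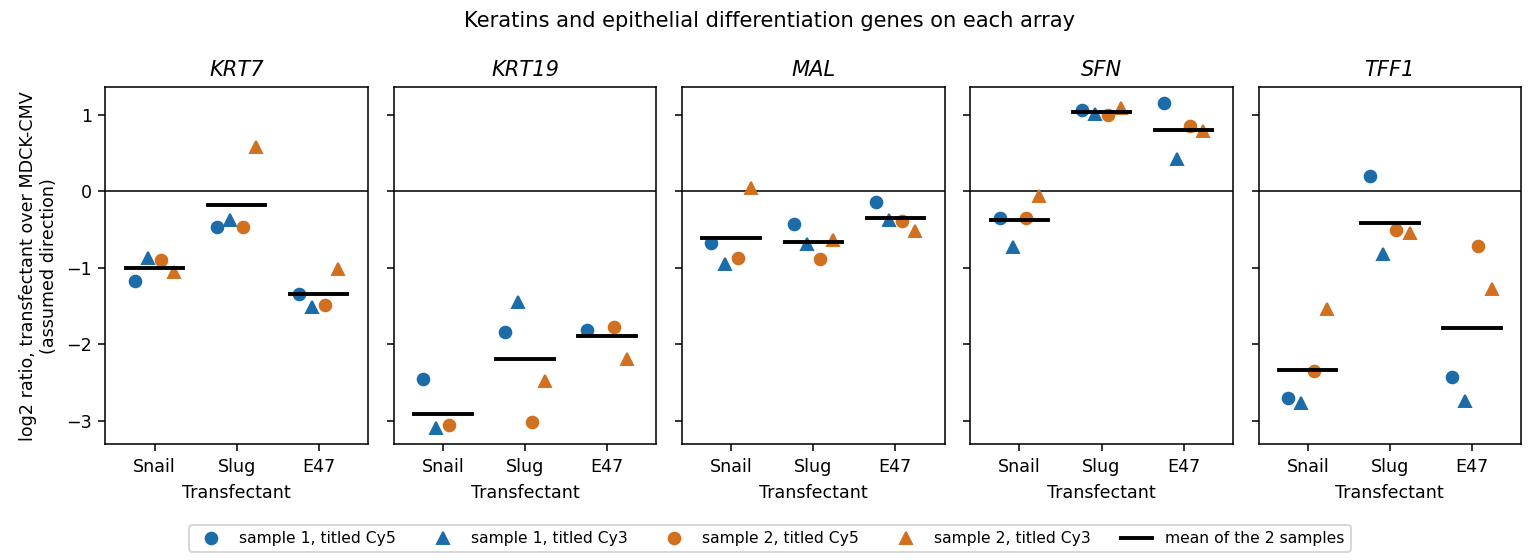
Each point is the log2 ratio of a transfectant over MDCK-CMV on 1 array (vertical axis, direction assumed), for KRT7, KRT19, MAL, SFN and TFF1 in the Snail, Slug and E47 transfectants (horizontal axis). Colour marks the numbered sample, shape the dye in the title, and the bar the mean of the 2 samples. KRT19 lies below 0 on all 10 arrays with a value, and SFN lies above 0 on the 8 Slug and E47 arrays and below it on the 4 Snail arrays.

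The array held 11 keratin genes, and the others stayed nearer to the control than KRT19. KRT8 had a mean log2 ratio of -0.40 ± 0.06 in Snail (SD, n = 2), 0.23 ± 0.25 in Slug and -0.16 ± 0.82 in E47. Its partner KRT18 had -0.18 ± 0.25, 0.14 ± 0.14 and -0.12 ± 0.03. Neither passed in any transfectant (limma, adjusted p from 0.37 to 0.78), so the ubiquitous pair of simple epithelia did not differ detectably. Of the keratins other than KRT7 and KRT19, 1 of 7 tested fell in Snail, 1 of 8 fell in Slug and 0 of 8 passed in E47, where 0 also had an unadjusted p under 0.05. None rose. Over all genes tested, limma called 5.07% lower in Snail, 9.62% in Slug and 1.49% in E47. With the sign turned these are shares called higher, and the keratins named here would have risen.

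The keratin that fell in Snail was KRT16, a type I keratin of activated and stratified epithelium, at -0.82 ± 0.16 (SE, n = 2; limma adjusted p = 0.0218). Its Snail arrays read -0.51 and -0.63 in sample 1 and -1.29 and -0.85 in sample 2, all below 0, and without Snail replicate 2 the call was lost (-0.57, adjusted p = 0.251). In Slug the keratin that fell was KRT14, the type I keratin of basal cells, at -0.85 ± 0.18 (SE, n = 2; limma adjusted p = 0.0255). KRT14 was not tested in Snail or E47, where values were missing. It read -1.78 and -0.003 on 2 Snail arrays and between -0.83 and -0.35 on 3 E47 arrays, so its fall cannot be called particular to Slug. Its Slug arrays read -1.47 and -0.86 in sample 1 and -1.35 and 0.29 in sample 2, so that the Slug 2 array titled Cy3 was the highest and the only one above 0, as for KRT7. With the arrays titled Cy3 alone KRT14 was at -0.29 (adjusted p = 0.572), and with all arrays scaled to 1 spread its call was lost (adjusted p = 0.0617). The median of the keratins tested other than KRT7 and KRT19 was -0.30 in Snail, -0.09 in Slug and -0.15 in E47, beside medians of all genes of -0.05, 0.02 and 0.0083.

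**Figure D2:**
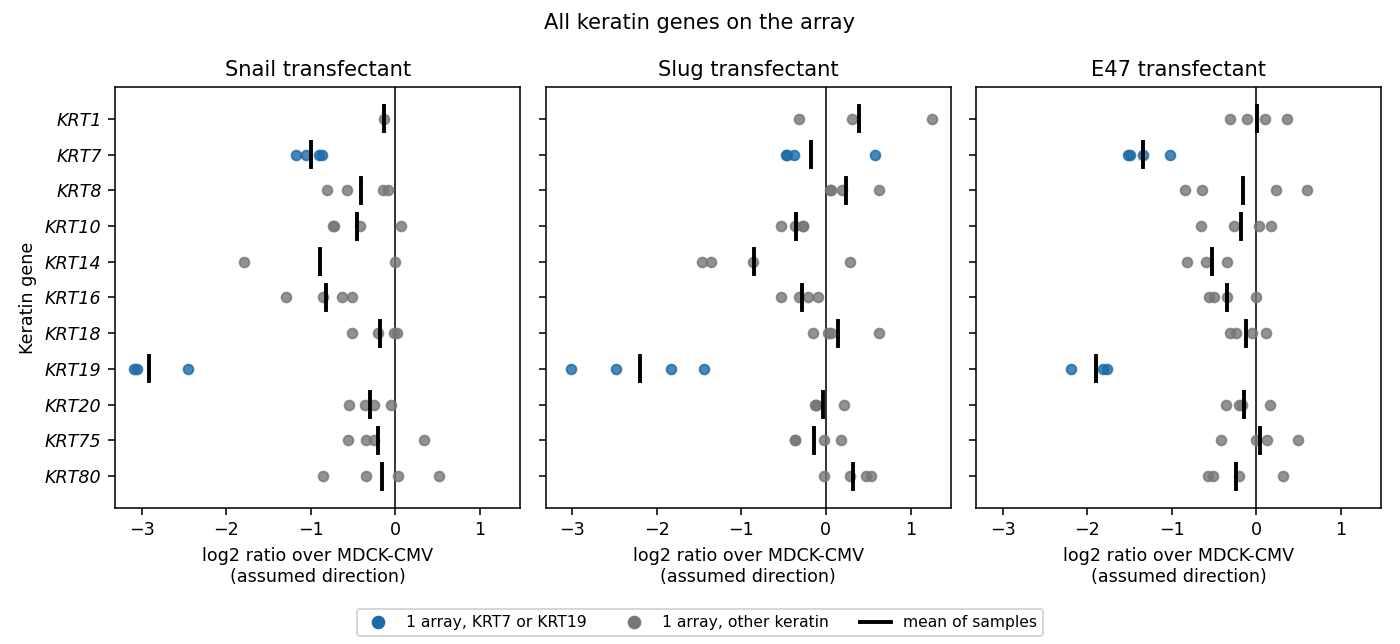
Log2 ratios over MDCK-CMV (horizontal axis, direction assumed) of all 11 keratin genes on the array (vertical axis), 1 panel per transfectant. Points are arrays, coloured for KRT7 and KRT19 and grey for the others, and bars are means over samples. KRT19 lies below -1.4 on every array that read it and is the lowest keratin on each of them. Across arrays it is not alone there, as KRT14 reached -1.78 in Snail and -1.47 in Slug, and KRT7 -1.52 in E47. KRT8 lies below 0 in Snail, above 0 in Slug and on both sides in E47, and KRT18 lies on both sides in each panel.

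Genes that hold keratin filaments or form other filaments went both ways. Desmoplakin (DSP), which ties keratins to desmosomes, fell in all 3 transfectants, by 2.51 ± 0.12 on the log2 scale in Snail (SE, n = 2; limma adjusted p = 1.72e-04), by 1.67 in Slug (adjusted p = 5.12e-04) and by 0.67 in E47 (adjusted p = 0.0232). The E47 call was lost without either E47 sample (adjusted p = 0.143 and 0.326) and without the Cy3 arrays of Snail 2 and E47 1 (adjusted p = 0.0508). Dystonin (DST), a linker of filaments to the cell base, fell by 0.85 ± 0.20 in Slug (limma adjusted p = 0.0226). Without Slug replicate 1 the log2 ratio of DST was -0.54, and without replicate 2 it was -1.15. With all arrays scaled to 1 spread the DST call in Slug was lost (limma adjusted p = 0.0709). DST was nearly as low in Snail, at -0.75 (limma adjusted p = 0.0668), and was at -0.52 in E47 (adjusted p = 0.198), neither past the threshold. LMNA, the gene of the nuclear lamins A and C, rose by 1.12 ± 0.12 in Slug (limma adjusted p = 0.0021). In sum, of 6 genes tested in each transfectant, 1 fell in Snail, 2 fell and 1 rose in Slug, and 1 fell in E47. The shares of all genes called were 5.07% lower in Snail, 9.62% lower and 12.2% higher in Slug, and 1.49% lower in E47. The vimentin gene VIM, the main filament protein of mesenchymal cells, had values of 0.56 and 0.78 on the 2 Snail arrays that read it and was not tested there. Its values lay between -0.041 and 0.27 on 3 Slug arrays, also without a test, and between -1.27 and 0.41 on the 4 E47 arrays, with a mean of -0.28 (limma adjusted p = 0.377).

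MAL lay a little below the control on nearly every array. In Snail its ratios were -0.67 and -0.95 in sample 1 and -0.87 and 0.04 in sample 2. In Slug they were -0.43 and -0.69 in sample 1 and -0.88 and -0.64 in sample 2, and in E47 -0.14 and -0.37 in sample 1 and -0.39 and -0.52 in sample 2. The only value above 0, by 0.04, was that of the Snail 2 array titled Cy3, so 11 of 12 arrays were on the side of CDH1. At least 11 arrays were on that side for 6.14% of genes with 10 or more values. Means were -0.61 ± 0.28 in Snail (SD, n = 2), -0.66 ± 0.14 in Slug and -0.35 ± 0.14 in E47, and arrays of all 3 overlapped. MAL has 2 spots of 1 clone, which differed by a median of 0.36 and at most 1.59 on an array. The median gap was 0.64 in Snail, of the size of the mean itself. It was 0.34 in Slug and 0.21 in E47, smaller than the means there. Rank from the lowest was 204 of 4082 genes in Snail, 257 of 4318 in Slug and 393 of 4229 in E47.

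Few other genes of apical membrane traffic passed the test, and those that did went both ways. Besides MAL, 2 of 11 tested fell and 0 rose in Snail, 1 of 12 rose and 0 fell in Slug, and 1 of 13 rose and 0 fell in E47. An unadjusted p under 0.05 was reached by 5, 5 and 3 of them. RAB10, a small GTPase of polarised traffic, fell by 0.96 ± 0.13 in Snail (SE, n = 2; limma adjusted p = 0.0057), a call lost without either Snail sample (adjusted p = 0.0545 and 0.0827). S100A10, the light chain bound to annexin A2, fell by 1.09 ± 0.17 in Snail (limma adjusted p = 0.0091; 0.0805 without Snail replicate 1) and rose by 0.71 ± 0.17 in Slug (adjusted p = 0.0217; 0.0802 and 0.13 without Slug replicate 1 or 2). STX3, the syntaxin of the apical membrane, rose by 1.62 ± 0.26 in E47 (limma adjusted p = 0.0142), and its call was lost without E47 replicate 2 (adjusted p = 0.0895). Over all genes limma called 5.07% lower and 2.15% higher in Snail, 12.2% higher in Slug and 3.81% higher in E47.

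SFN was the only one of the 5 genes with a mean above the control, and this in Slug and E47. Its Slug arrays read 1.06 and 1.01 in sample 1 and 1.00 and 1.08 in sample 2. Its E47 arrays read 1.15 and 0.42 in sample 1 and 0.85 and 0.79 in sample 2. Its Snail arrays read -0.35 and -0.72 in sample 1 and -0.35 and -0.06 in sample 2. The 4 Slug values lay close together, all 8 Slug and E47 values were above 0, and all 4 Snail values were below it. Among genes read on all 4 arrays, 22.3% lay above 0 on each in Slug and 18.0% in E47, and 24.1% lay below 0 on each in Snail. Relative to CDH1, SFN was on the other side on 8 of 8 Slug and E47 arrays and on the same side on 4 of 4 Snail arrays. Means were -0.37 ± 0.23 in Snail (SD, n = 2), 1.04 ± 0.01 in Slug, 2.05-fold above the control, and 0.80 ± 0.02 in E47, 1.75-fold above. The 2 spots of the SFN clone differed by a median of 0.34 and at most 0.86, on 11 arrays with both. On the 3 Slug arrays with both, the median gap was 0.64, wider than the range of the 4 Slug values. The Slug 1 array titled Cy3 had a value for 1 spot only. From the highest, SFN held rank 126 of 4318 genes in Slug and 113 of 4229 in E47, and from the lowest rank 546 of 4082 in Snail.

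SFN belongs to 2 of the lists, the 14-3-3 family and the p53 targets. Of its 3 tested relatives, YWHAH, the eta form, rose by 0.83 ± 0.16 in Slug (SE, n = 2; limma adjusted p = 0.0097; 0.0801 without Slug replicate 2), and YWHAE and YWHAQ had 0.35 or less there. None of the 3 passed in Snail or E47, with an unadjusted p under 0.05 for 2 in each. Of the p53 targets other than SFN, 0 of 16 passed in Snail and 0 of 17 in E47 (unadjusted p under 0.05 for 3 and 4). In Slug 2 of 16 rose and 1 fell, near the 12.2% of all genes called higher and the 9.62% called lower. CDKN1A, the cyclin-dependent kinase inhibitor p21, rose by 2.35 ± 0.39 there (limma adjusted p = 0.0060). BBC3, a BH3-only death gene, rose by 0.55 (adjusted p = 0.0334) and TP53INP1 fell by 0.53 (adjusted p = 0.0243), both lost without Slug replicate 1 (adjusted p = 0.137 and 0.140) or 2 (adjusted p = 0.16 and 0.104).

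TFF1 lay far below the control in Snail, lay below it with samples apart in E47, and was near it in Slug. The Snail arrays read -2.70 and -2.77 in sample 1 and -2.35 and -1.54 in sample 2. The E47 arrays read -2.43 and -2.74 in sample 1 and -0.71 and -1.28 in sample 2, so both arrays of sample 1 lay more than 1 log2 unit below both of sample 2. The Slug arrays read 0.20 and -0.82 in sample 1 and -0.50 and -0.55 in sample 2. Means were -2.34 ± 0.56 in Snail (SD, n = 2), 5.06-fold below the control, -0.42 ± 0.15 in Slug and -1.79 ± 1.12 in E47, 3.46-fold below. In E47 the mean rests on sample 1: without it the value was -0.997, and without sample 2 it was -2.58. TFF1 held rank 7 from the lowest in Snail, 562 in Slug and 11 in E47. Snail and Slug arrays did not overlap, and E47 arrays overlapped both.

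The array offered few relatives of TFF1. Of 4 other secretory lineage genes tested (FOXA1, KLF4, LCN2 and LTF), 0 passed in each transfectant in limma and 0 had an unadjusted p under 0.05. Of the oestrogen response genes outside the 5, 2 of 8 fell in Snail, 1 of 9 rose in Slug and 1 of 8 rose in E47. Of all genes 5.07% were called lower in Snail, 12.2% higher in Slug and 3.81% higher in E47. PGR, the progesterone receptor, fell by 1.14 ± 0.16 in Snail (SE, n = 2; limma adjusted p = 0.0069; 0.0845 and 0.0657 without Snail replicate 1 or 2). CCND1, cyclin D1, fell by 0.80 ± 0.12 in Snail (limma adjusted p = 0.0088) and rose by 0.69 in Slug (adjusted p = 0.0073) and by 0.73 in E47 (adjusted p = 0.0157), the same sides as SFN. The CCND1 calls were lost without Snail replicate 1 (adjusted p = 0.0879) or 2 (0.0657), without Slug replicate 1 (0.067) and without E47 replicate 1 (0.115) or 2 (0.249). Among squamous differentiation genes ANXA1, annexin A1, fell by 1.99 ± 0.13 in Slug (limma adjusted p = 4.25e-04) and by 1.05 in E47 (adjusted p = 0.0058; 0.125 without E47 replicate 2). It was the only one of 7 to pass in these, and 0 of 6 passed in Snail, with 3 at an unadjusted p under 0.05. Of all genes 9.62% were called lower in Slug and 1.49% in E47.

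**Figure D3:**
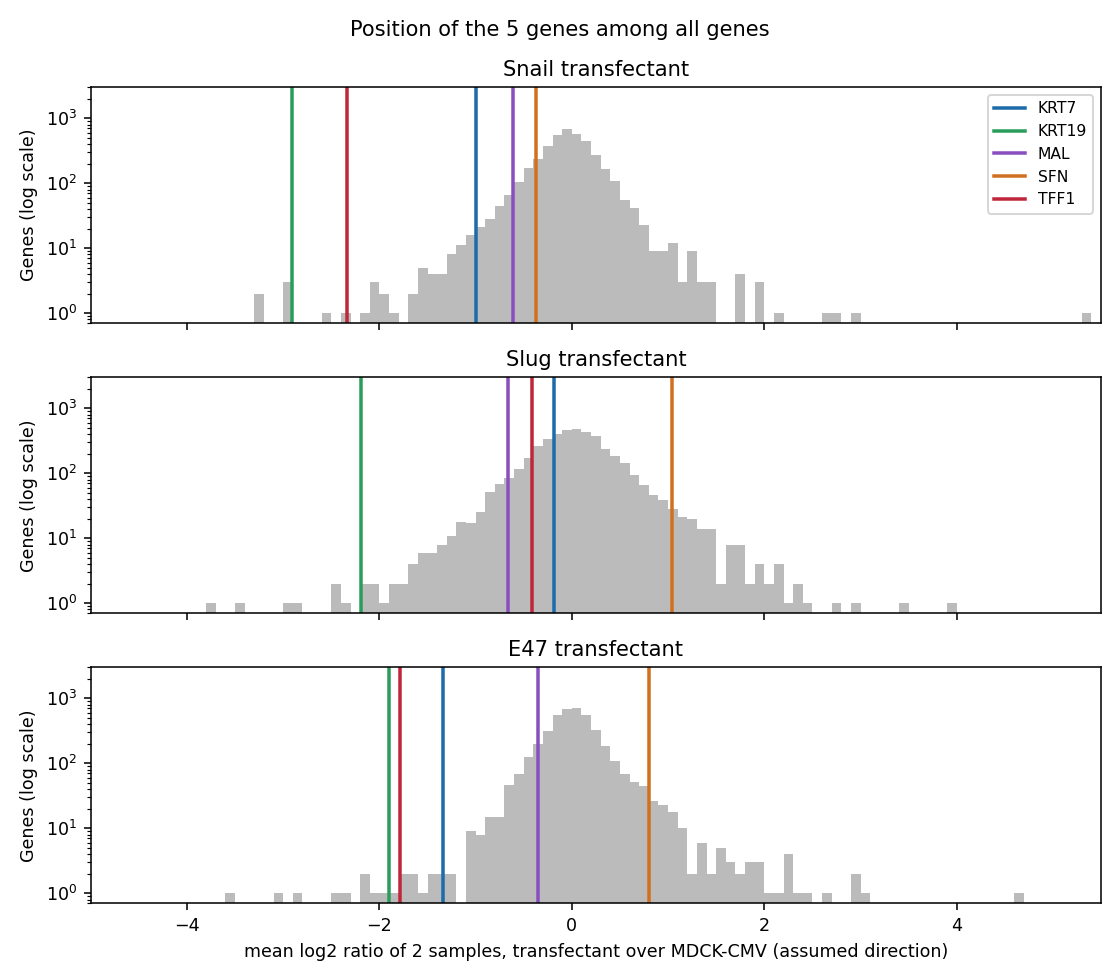
Grey bars count all genes by mean log2 ratio of the 2 samples of a transfectant (horizontal axis, bins of 0.1, direction assumed; vertical axis logarithmic), and coloured lines mark KRT7, KRT19, MAL, SFN and TFF1. KRT19 lies in the lower tail of each panel (-2.91, -2.19 and -1.90), TFF1 in that of Snail and E47 (-2.34 and -1.79), and SFN in the upper part of Slug and E47 (1.04 and 0.80).

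In the fit over the whole table, 3 of 4 members tested were past adjusted p of 0.05 in Snail (KRT7, MAL and TFF1), 3 of 5 in Slug (KRT19, MAL and SFN) and 3 of 4 in E47 (KRT7, SFN and TFF1). Among all genes limma called 7.22% in Snail, 21.8% in Slug and 5.3% in E47. Between transfectants, 3 of 4 were past it for Snail against Slug (13.2% of all genes), 1 of 4 for Snail against E47 (2.57%) and 0 of 4 for Slug against E47 (0.786%). Because the genes were picked from these same comparisons, nothing is read from these counts. Several of them also rest on both samples: KRT7, MAL and TFF1 in Snail, MAL in Slug and SFN in E47 fell short without either sample of the transfectant, and TFF1 in E47 without replicate 1. KRT19 was not tested in Snail and E47, where 1 sample lacked a second array.

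Set against each other, the transfectants differed most in SFN, TFF1 and KRT7. SFN was lower in Snail than in Slug by a log2 difference of -1.41 ± 0.18 (SE of the whole-table fit, n = 2 each) and lower than in E47 by -1.17 ± 0.18, with no overlap of arrays in either pair. TFF1 was lower in Snail than in Slug, by -1.92 ± 0.48, again without overlap. KRT7 was lower in Snail than in Slug by -0.82 ± 0.20, and higher in Slug than in E47 by 1.16 ± 0.20. For all genes with at least 3 arrays in each group, arrays did not overlap in 22.3% between Snail and Slug, in 20.0% between Snail and E47 and in 12.6% between Slug and E47. Between Slug and E47, SFN differed by 0.24 ± 0.18 and MAL by -0.31 ± 0.20, with overlapping arrays. MAL differed between Snail and Slug by 0.05 ± 0.20 and between Snail and E47 by -0.26 ± 0.20. These differences come from the values that chose the genes, so they are given as a description and their p-values are left out. They would become sums if the overall sign of 1 transfectant of a pair were turned.

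**Figure D4:**
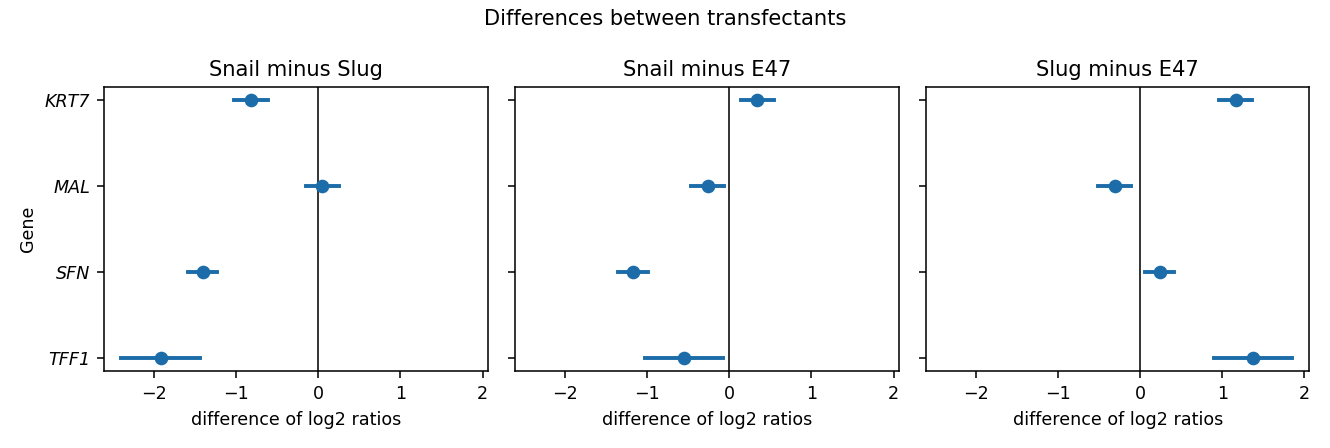
Differences of mean log2 ratios between transfectants (horizontal axis) for KRT7, MAL, SFN and TFF1 (vertical axis). Points are estimates and bars extend 1 SE to either side, from the fit over all genes with n = 2 samples per transfectant. SFN is lower in Snail than in Slug (-1.41) and E47 (-1.17), and MAL differs by no more than 0.31 in size. KRT19 is not drawn because 2 of its samples lack an array.

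Likeness over arrays was measured by the cosine of log2 ratios, which no turning of an array changes. The arrays share the control RNA, so these are descriptions over 10 to 12 points from 6 samples. KRT19 and MAL were alike at 0.97 (10 arrays) and were each other's nearest gene, of 3659 and 4106 compared. Those 10 arrays leave out Snail 2 titled Cy3, the only array with MAL above 0, while MAL was compared with its next nearest genes over 12. KRT19 was next nearest to LAGE3 (0.97), a subunit of a tRNA-modifying complex, and to CDH1 (0.97). MAL was next nearest to AUH (0.93), a mitochondrial hydratase, and to SMAD5 (0.93), a mediator of BMP signals. KRT7 lay nearest to CYB5R4 (0.93), a reductase, to CCNC, cyclin C (0.91), and to PSMB5, a proteasome subunit (0.90), with TFF1 at rank 14 (0.87). TFF1 lay nearest to MITF (0.95), a transcription factor, to TNFRSF21 (0.94), a death receptor, and to TSPAN13 (0.92), a tetraspanin. SFN lay nearest to GDI2 (0.97), a regulator of Rab proteins, to ENTREP3 (0.97) and to MED13 (0.97), a Mediator subunit. GDI2 had means of -0.60 in Snail, 1.29 in Slug and 1.01 in E47, the same order of sides as SFN. SFN had a cosine below 0 with each of the other 4 genes, from -0.49 with KRT19 to -0.19 with TFF1.

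**Figure D5:**
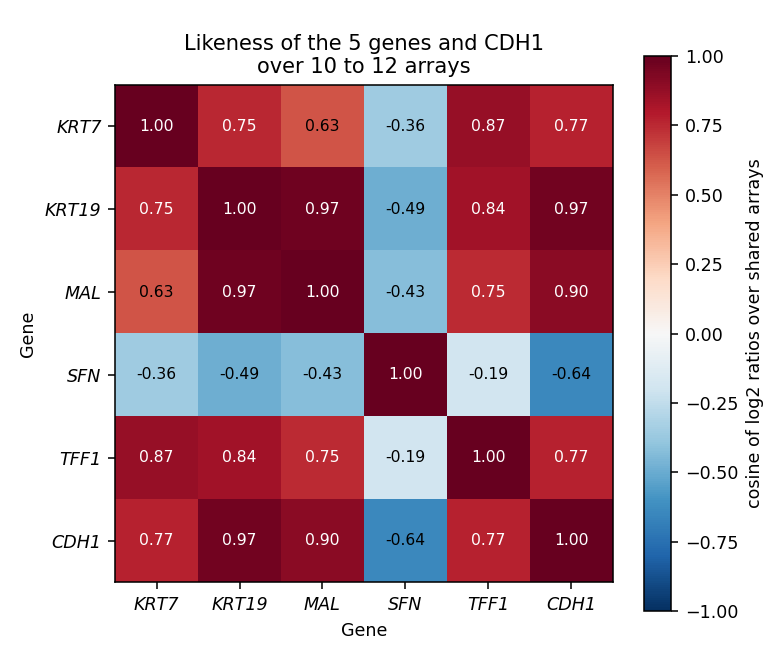
Cosine of log2 ratios between KRT7, KRT19, MAL, SFN, TFF1 and CDH1 (both axes are genes) over the 10 to 12 arrays with values for both. Red cells are above 0 and blue cells below. KRT19 is closest to MAL and CDH1 (0.97 each), and SFN is below 0 with the other genes shown, down to -0.64 with CDH1.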

How the data were processed

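RNA of MDCK cells transfected with Snail, Slug or E47 was compared with that of MDCK-CMV on 12 arrays of 2 colours. The deposited table holds, for 13056 probes, a log2 ratio of the 2 channels, with array medians from -0.0634 to 0.0594; no source says how the authors centred it. That the base is 2 was checked: antilogs of values below -0.5 were whole thousandths within 0.00006 on the log2 scale in 100% of cases on each array. The scanner, background correction, normalization and why cells are empty: not given in the sources used here. Signal over background is not in the table, and the number of arrays limits precision. Of the probes 8047 had 1 symbol, 276 several and 4733 none; only the first were used.

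Arrays were turned as described in the report. Spots were averaged per clone, clones per gene, and the 2 arrays of a numbered sample to 1 replicate. For the fit both arrays were needed; for the described means 1 was enough, which matters for KRT19. limma 3.58.1 in R 4.3.3 fitted the 3 transfectants together without an intercept, tested each against 0 and each pair, two-sided, with Benjamini-Hochberg adjustment over all genes tested and a threshold of 0.05. The code was tested on simulated data. Ratios against 0 leave out the control's spread. Each SE and p-value of limma rests on 1 spread per gene, shared by the 3 transfectants and drawn toward that of all genes. It therefore does not measure the spread of the 2 samples of 1 transfectant. TFF1 had an SE of 0.34 in each, beside SDs of 0.56 in Snail, 0.15 in Slug and 1.12 in E47. The labels do not call the samples separate cultures, so the spread may be technical. Tables and figures were made with Python 3.11.15.

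Named are the 5 genes, CDH1, any member of 10 gene lists that passed, and the 3 genes most like each of the 5 (at least 10 arrays with both values). Values of KRT8, KRT18, VIM, EPCAM and of unpassed relatives were added after they were seen. The 5 genes and the lists were chosen with earlier results of these data known. Alternatives were other scalings, centring, spot summaries and filters, arrays of 1 dye title, arrays as units, a replicate block, and leaving out each replicate; a fit without the Cy3 arrays of Snail 2 and E47 1 was added after seeing the data.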

Additional observations from a re-analysis of the deposited data

Results flagged for a closer look

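The Slug 2 array titled Cy3 read KRT7 at 0.58, far from the other Slug arrays, which lay between -0.47 and -0.37. This was the only array to stand apart from its group by Dixon's criterion in 13 sets of 4 arrays, and chance alone marks about 1 in 20 such sets. KRT14, which is outside those sets, also had its only value above 0 in Slug on this array (0.29).

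SFN lay on opposite sides of the control in different transfectants, but its Snail mean of -0.37 was not past the threshold in the fit over all genes. On the Snail 2 array titled Cy3 the 2 spots of SFN read 0.24 and -0.36. Its mean log2 ratio in Snail was lower by -1.41 than in Slug and by -1.17 than in E47, with every Snail array below 0 and every Slug and E47 array above it. Both differences were past the threshold in the fit over all genes, but SFN was chosen from these values, so they are no independent test.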

How the results depend on the processing

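Of 191 values of the 5 genes under alternatives, 168 stayed within 1 SD of the value reported, 21 moved by more and 2 changed side. The 168 does not measure robustness, because part of it was fixed in advance. Leaving out 1 of 2 samples cannot move a mean by more than 1 SD, as for TFF1 in E47 (-0.997 and -2.58, SD 1.12). Other settings repeat most of the values by construction, among them arrays as units, the replicate block and the median over spots. The changes of side were those of KRT7 in Slug, at 0.103 with the arrays titled Cy3 only and at 0.055 without Slug replicate 1 (-0.417 without replicate 2). The counts of genes past the threshold depended more on the settings; the cause was not tested. In the order Snail, Slug and E47 against control, then Snail against Slug, Snail against E47 and Slug against E47, they were 272, 885, 210, 486, 93 and 30. With arrays titled Cy3 only they were 56, 372, 42, 88, 1 and 4. With arrays titled Cy5 only, 576 genes passed in Slug, 265 between Snail and Slug and 39 between Snail and E47. With array spreads made equal, 436 passed in Slug, 310 between Snail and Slug, 184 between Snail and E47 and 15 between Slug and E47. With arrays as units, 585 passed in Snail, 452 in E47, and 833, 382 and 194 between the pairs. With probes read on all 12 arrays, 156 passed between Snail and E47 and 50 between Slug and E47. Without the Cy3 arrays of Snail 2 and E47 1, 336 passed in E47, 188 between Snail and E47 and 58 between Slug and E47. Of the 5 genes, MAL in Snail fell short under 7 of 17 alternatives, among them re-centring, the replicate block and leaving out any Snail or E47 replicate. With arrays titled Cy3 only KRT7, SFN and TFF1 in E47, KRT7 in Snail and MAL in Slug fell short too, the last also with equal spreads. SFN in Slug passed under all 17, and KRT19 in Slug under all 13 that could test it. Calls of listed genes named in the text were also lost by setting. With arrays titled Cy5 only these were KRT16, DSP in E47, S100A10 and CCND1 in Slug, BBC3 and TP53INP1. With those titled Cy3 only they were KRT16, KRT14, DSP in E47, DST, S100A10, STX3, PGR, CCND1, CDKN1A, BBC3, TP53INP1, ANXA1 in E47, and FN1 in Snail and E47. With equal spreads they were KRT14, DST, S100A10 in Slug, BBC3 and TP53INP1, and with probes read on all arrays S100A10 in Slug. KRT14 could not be tested under the replicate block, without a Slug replicate or with probes read on all arrays, since values were missing. Leaving out 1 replicate gave 34 to 345 in Snail, 325 to 891 in Slug and 26 to 275 in E47. Between pairs it gave 138 to 389, 3 to 137 and 8 to 27, and fewer samples enter these fits.

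Samples share only a replicate number: differences of replicate 1 minus 2 correlated across genes with r = 0.02 between Snail and Slug, 0.23 between Snail and E47 and -0.06 between Slug and E47. With the number as a replicate block the counts were 292, 885, 232, 519, 101 and 34.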

Other observations

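The epithelial surface gene EPCAM, named after its values were seen, differed between the samples of each transfectant. Its log2 ratio was -0.18 in sample 1 and -2.996 in sample 2 of Snail, -2.78 and -0.96 in Slug, and -0.36 and -2.69 in E47. TFF1 ran the other way in each, with -2.58 in sample 1 and -0.997 in sample 2 of E47. Its samples 1 and 2 had -2.73 and -1.945 in Snail and -0.31 and -0.53 in Slug. In Slug the 2 arrays of sample 1, at 0.20 and -0.82, lay on either side of those of sample 2. In each transfectant the sample with the lower EPCAM ratio was the one with turned arrays. These were both arrays of Snail 2, both of Slug 1 and the E47 2 array titled Cy5. The E47 2 array titled Cy3 was not turned. No E47 array lay below -2.80, so the E47 2 mean of -2.69 rests on low values in both dyes. What sets the samples apart was not tested.

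Beside the 5 genes, 13 epithelial markers were tested in each transfectant: 2 fell in Snail, 4 fell and 1 rose in Slug, and 2 fell in E47 (limma), CDH1 among them by the choice of sign. Over all genes 5.07% were called lower in Snail, 9.62% lower and 12.2% higher in Slug, and 1.49% lower in E47. Of mesenchymal markers, 5 of 11 rose and 1 fell in Snail, 5 of 12 rose in Slug and 5 of 13 rose in E47, beside 2.15%, 12.2% and 3.81% of all genes called higher. COL1A2, a collagen chain, and FN1, fibronectin, were among those that rose in each. Without Snail replicate 2 both were lost in Snail (COL1A2 adjusted p = 0.0698, FN1 0.22), and FN1 was lost in E47 without E47 replicate 2 (adjusted p = 0.234).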
